A study of Mus musculus with 23 samples.

Results

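The platelet and megakaryocyte genes followed here are 9 listed genes: Ppbp, Pf4, Thbs1, Vwf, Gp1ba, Gp1bb, Gp9, Gp6 and Itga2b. They were found by symbol in a table of log2 array signals, with the probe set of highest mean standing for a gene where several carried its symbol alone. A probe set is the group of probes that the array reads out as 1 value. Of the 9 genes, 6 had such a probe set (Ppbp, Pf4, Thbs1, Vwf, Gp9 and Itga2b), among 19938 symbols in the table. The only probe set that carries Gp1bb also carries Septin5, so no value is given for it, and Gp1ba and Gp6 were not analysed here.

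Each array measured marrow cells of a different mouse, and all mice had received 2 Gy of radiation when 2 months old. In Pax5+/- mice 1 copy of Pax5 is missing, a gene whose product holds cells to the B lineage, and wild-type (WT) mice carry both. Leukemias had been sampled from 10 Pax5+/- and 3 WT mice. Preleukemic samples, which hold pro-B together with pre-B cells, had been collected 3 weeks past irradiation in 7 Pax5+/- and 3 WT mice. Every group had been irradiated, and no unirradiated sample was used here. The labels call the leukemias pro-B cells in 1 field and leukemic marrow in another, and state no sort, strain, sex or age at sampling. Leukemia can thus not be told apart from B cell stage, cell purity or time after the dose. Arrays limit the precision by their number.

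Platelets are shed by megakaryocytes, large polyploid marrow cells that arise from stem and progenitor cells. Their granules store chemokines and adhesion proteins, and their surface carries the glycoprotein Ib-IX-V complex, which binds von Willebrand factor, and the integrin of Itga2b and Itgb3, which binds fibrinogen. Platelets hold RNA inherited from the megakaryocyte but no nucleus, so marrow RNA can contain transcripts of both. B cell precursors are a separate lineage.

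The median log2 signal of an array was 6.06 to 6.2. Markers of B cell precursors, checked against the labels, had a mean log2 level of 11.52 to 11.83 over 9 genes in the Pax5+/- preleukemic samples and of 9.72 to 11.05 in the Pax5+/- leukemias. In WT mice the mean was 11.58 to 11.84 before leukemia and 8.7 to 10.32 in leukemia. Of these 9 markers, 7 were above the array median in every WT leukemia. WT preleukemic sample 20 stood apart from the other two: its neutrophil markers averaged 11 on the log2 scale, against a lowest value of 6.54 in its group. Its monocyte and macrophage markers averaged 7.43, its mast cell and basophil markers 7.01 and its erythroid markers 8.12, each the highest of the 3 samples.

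Upstream sequences are shown because the measured genes moved together and megakaryocyte genes are known as targets of GATA and ETS factors. Such sequences were available for 4 of the measured genes, and not for Thbs1 or Vwf. Those shown are RefSeq sequences of build GRCm38.p6, the 250 bases before each gene's start, 5′ to 3′ on the gene's strand. Ppbp (chr5:90768268-90768517, plus strand), Pf4 (chr5:90772185-90772434, plus strand), Gp9 (chr6:87777820-87778069, plus strand) and Itga2b (chr11:102469884-102470133, minus strand) are given. Capitals mark matches to the ETS words AGGAAG or CGGAAG on either strand.
Ppbp: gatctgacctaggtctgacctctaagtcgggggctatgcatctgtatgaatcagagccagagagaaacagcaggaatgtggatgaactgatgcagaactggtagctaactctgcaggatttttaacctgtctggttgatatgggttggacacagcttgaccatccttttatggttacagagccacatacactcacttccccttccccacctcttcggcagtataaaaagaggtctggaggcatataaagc
Pf4: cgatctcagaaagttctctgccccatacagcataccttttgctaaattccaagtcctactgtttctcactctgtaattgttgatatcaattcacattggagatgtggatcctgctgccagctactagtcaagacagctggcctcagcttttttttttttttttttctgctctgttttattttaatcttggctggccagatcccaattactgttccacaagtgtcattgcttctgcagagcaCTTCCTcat
Gp9: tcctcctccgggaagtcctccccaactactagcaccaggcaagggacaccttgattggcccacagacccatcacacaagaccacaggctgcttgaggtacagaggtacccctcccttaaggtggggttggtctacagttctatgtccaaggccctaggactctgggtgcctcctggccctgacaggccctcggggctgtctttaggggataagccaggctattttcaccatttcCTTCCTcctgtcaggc
Itga2b: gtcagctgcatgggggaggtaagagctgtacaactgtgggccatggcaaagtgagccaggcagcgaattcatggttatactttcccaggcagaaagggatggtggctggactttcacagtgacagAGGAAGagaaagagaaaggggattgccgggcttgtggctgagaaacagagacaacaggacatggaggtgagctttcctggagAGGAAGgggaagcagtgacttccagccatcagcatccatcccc
An ETS word was present upstream of 3 of the 4 genes, Pf4, Gp9 and Itga2b, and in 39.2% of 32841 upstream windows of the same length. In Pf4 it ended 4 bases before the start and in Gp9 11 bases before it. Itga2b held it at 2 places, ending 120 and 38 bases before the start. The GATA motif was searched on either strand as AGATAA or the word TGATAA, and with a final G as AGATAG or the word TGATAG. It was found in 0 of the 4 windows and in 26.5% of all windows, so no match of 1 motif overlapped the other here. A match or its absence in these letters says nothing of whether a factor binds.

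All 6 measured genes were higher in leukemia than before it, in both genotypes. In Pax5+/- mice 6 of 6 passed the test, which fits all 4 groups with limma and takes a Benjamini-Hochberg adjusted p of 0.05 over all genes as its threshold. Over all 15542 genes tested, 28.0% passed as higher in this comparison. Each of the 6 passed with a rise of over 2-fold, as did 6.87% of all genes tested. In WT mice 6 of 6 also passed, against 17.9% of all genes, and each again by over 2-fold, against 5.84%. The median log2 difference of the 6 genes was 3.23 in Pax5+/- and 3.35 in WT mice, and over all genes it was -0.05 and -0.06. Every one of the 6 also cleared the filter on low values on the preleukemic arrays alone, so none was tested only because it was high in leukemia. In marrow RNA a change in the number of cells of a type and a change in RNA per cell cannot be told apart.

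**Figure D1:**
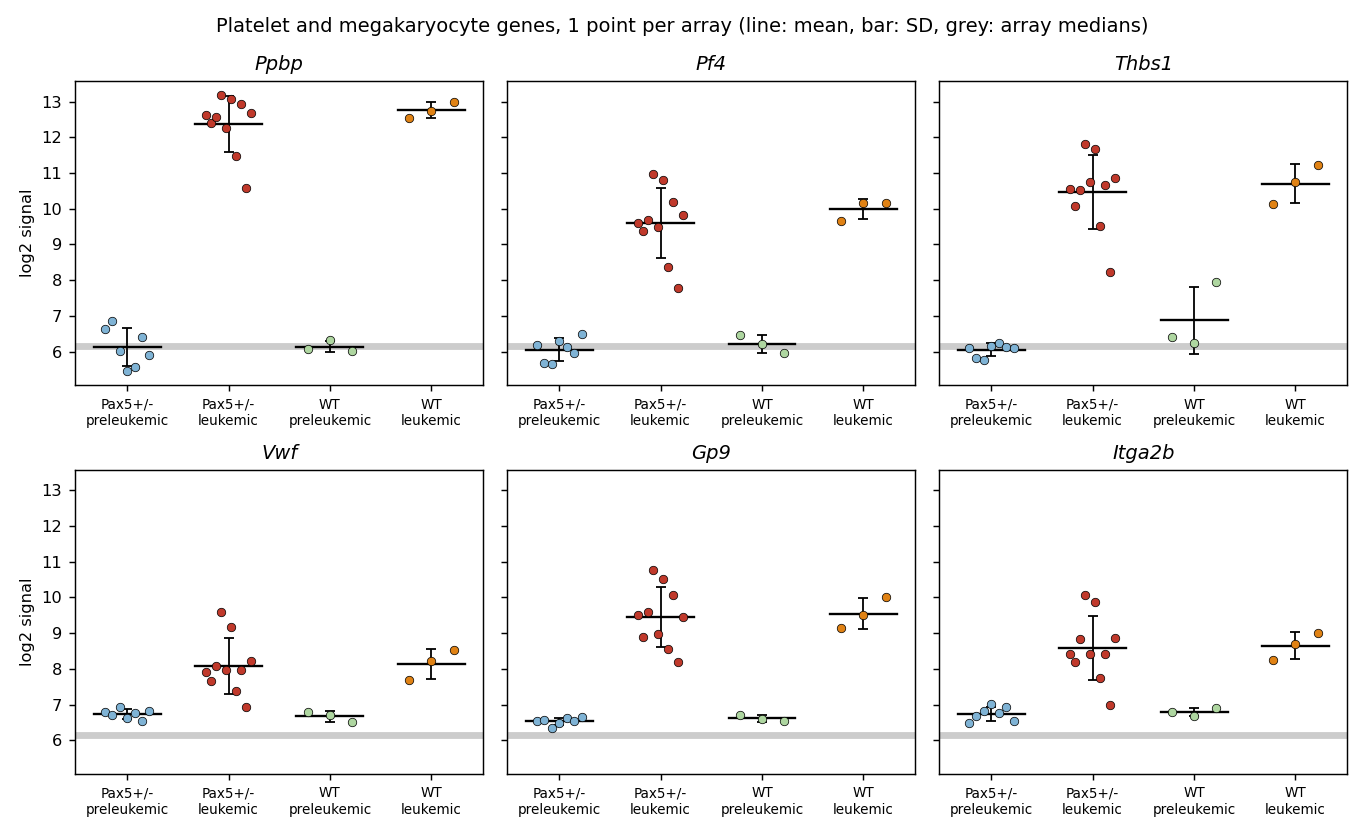
Log2 signal of the 6 measured platelet and megakaryocyte genes (vertical axis) in the 4 groups (horizontal axis), 1 point per array, with the group mean as a line, the SD as a bar and the range of array medians, 6.06 to 6.2, as a grey band. Both leukemic groups lie above both preleukemic groups for each gene, apart from the lowest Pax5+/- leukemias of Vwf and Itga2b, and WT preleukemic sample 20 is the raised point of Thbs1.

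Ppbp encodes pro-platelet basic protein, the precursor of a chemokine that draws neutrophils and is stored in platelet alpha granules. Its log2 signal in the Pax5+/- leukemias ran from 10.59 through a median of 12.6 to 13.19. In the Pax5+/- preleukemic samples it ran from 5.45 through 6.02 to 6.85, so every leukemia lay above every preleukemic sample, by at least 3.74 on the log2 scale. The WT leukemias held 12.54, 12.75 and 12.98 and the WT preleukemic samples 6.06, 6.33 and 6.03, again without overlap. The fold was 76.7 in Pax5+/- mice (95% interval 50.4 to 117, log2 SE 0.292, 10 against 7 samples, limma adjusted p = 3.68e-13). In WT mice it was 98.1 (95% interval 49 to 197, 3 against 3 samples, limma adjusted p = 3.72e-09). Preleukemic Ppbp lay around the array median, above it in 3 of 7 Pax5+/- and 1 of 3 WT samples. The deposited table holds no detection calls, so whether preleukemic Ppbp, Pf4 or Thbs1 exceeded background was not tested. A fold measured from background understates the true one.

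Pf4 encodes platelet factor 4, a heparin-binding chemokine of the same granules and the gene next to Ppbp. In the Pax5+/- leukemias its log2 signal ran from 7.78 through 9.64 to 10.98, and in the preleukemic samples from 5.65 through 6.13 to 6.49. The WT leukemias held 9.66, 10.16 and 10.15 and the WT preleukemic samples 6.47, 6.22 and 5.97. Neither genotype showed an overlap between the stages. Pf4 rose 11.7-fold in Pax5+/- mice (95% interval 7.3 to 18.8, SE 0.329, limma adjusted p = 1.14e-08) and 13.6-fold in WT mice (95% interval 6.23 to 29.9, SE 0.545, limma adjusted p = 2.7e-05).

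The chemokine genes beside Ppbp and Pf4 showed no difference of that size. In RefSeq order the protein-coding genes here are Cxcl5, Ppbp, Pf4, Cxcl3, Cxcl15 and Cxcl1. Over all 23 arrays Cxcl5, a neutrophil chemokine, ran from 4.79 to 5.04 on the log2 scale and Cxcl3 from 5.04 to 5.34. Cxcl15 ran from 4.23 to 4.66. All 3 lay below the array median on every array. Cxcl1 ran from 6.43 to 6.96, above the median on every array. Leukemic minus preleukemic differences in Pax5+/- mice were 0.00 for Cxcl5, -0.06 for Cxcl3, -0.12 for Cxcl15 and -0.14 for Cxcl1. Cxcl3 and Cxcl1 were tested and did not pass (limma adjusted p = 0.213 and 0.0907), while Cxcl5 and Cxcl15 fell below the filter.

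**Figure D2:**
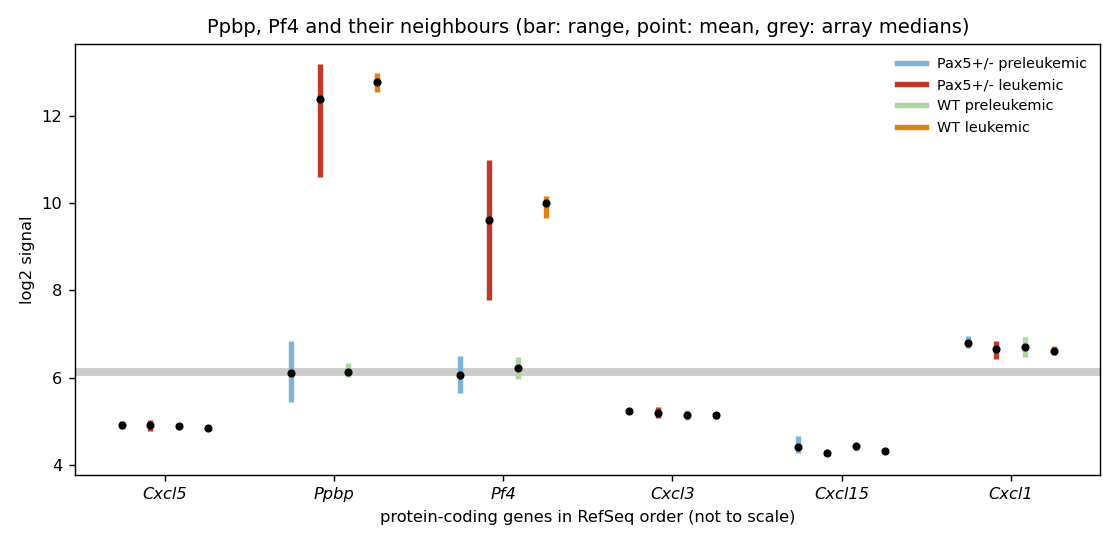
Log2 signal (vertical axis) of Ppbp, Pf4 and the chemokine genes beside them in RefSeq gene order (horizontal axis, not to scale), with a bar from the lowest to the highest array of each group, a point at the group mean and the array medians as a grey band. Ppbp reaches 13.19 and Pf4 10.98 in leukemia, while Cxcl5 and Cxcl3 stay at or under 5.34 in all groups.

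Thbs1 encodes thrombospondin 1, a matrix glycoprotein of alpha granules that monocytes, endothelium and stroma also make. Its log2 signal in the Pax5+/- leukemias ran from 8.22 through 10.61 to 11.82, and in the preleukemic samples from 5.77 through 6.11 to 6.25. The stages were separated by 1.97 on the log2 scale. WT leukemias held 10.12, 10.76 and 11.22, and WT preleukemic samples 6.42, 6.24 and 7.96, the last in sample 20. Thbs1 rose 21.4-fold in Pax5+/- mice (95% interval 12.5 to 36.5, SE 0.372, limma adjusted p = 2.7e-09). In WT mice it rose 14.2-fold (95% interval 5.84 to 34.5, SE 0.616, limma adjusted p = 8.5e-05), or 20.7-fold without sample 20.

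Vwf encodes von Willebrand factor, which tethers platelets to exposed collagen and is made by megakaryocytes and endothelium. It ran from 6.93 through 7.97 to 9.58 in the Pax5+/- leukemias and from 6.54 through 6.75 to 6.93 in the preleukemic samples. The lowest leukemia, sample 9, equalled the highest preleukemic sample, and the other 9 leukemias lay above all of them. WT leukemias held 7.69, 8.22 and 8.52 and WT preleukemic samples 6.79, 6.71 and 6.5, without overlap. The rise was 2.54-fold in Pax5+/- mice (95% interval 1.74 to 3.71, SE 0.262, limma adjusted p = 0.000165) and 2.78-fold in WT mice (95% interval 1.49 to 5.2, SE 0.434, limma adjusted p = 0.0116). In WT mice the call was lost when samples 15, 17 and 20 were left out together (log2 difference 0.94, limma adjusted p = 0.297).

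Gp9 encodes glycoprotein IX, the small subunit that the glycoprotein Ib-IX-V complex needs to reach the surface of platelets. It ran from 8.18 through 9.48 to 10.78 in the Pax5+/- leukemias and from 6.34 through 6.54 to 6.65 in the preleukemic samples. The WT leukemias held 9.14, 9.5 and 10.01 and the WT preleukemic samples 6.72, 6.6 and 6.53. No leukemia overlapped a preleukemic sample in either genotype. Gp9 rose 7.55-fold in Pax5+/- mice (95% interval 5.06 to 11.3, SE 0.278, limma adjusted p = 1.69e-08) and 7.64-fold in WT mice (95% interval 3.94 to 14.8, SE 0.46, limma adjusted p = 6.42e-05).

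Itga2b encodes integrin alpha IIb (CD41), a defining surface protein of megakaryocytes and platelets that some early progenitors also carry. It ran from 7 through 8.43 to 10.06 in the Pax5+/- leukemias and from 6.48 through 6.75 to 7.02 in the preleukemic samples. Leukemia 9, at 7, lay inside the preleukemic range, and the other 9 leukemias lay above it. WT leukemias held 8.26, 8.69 and 9.01 and WT preleukemic samples 6.78, 6.68 and 6.9. Itga2b rose 3.57-fold in Pax5+/- mice (95% interval 2.31 to 5.5, SE 0.301, limma adjusted p = 2.49e-05) and 3.65-fold in WT mice (95% interval 1.78 to 7.47, SE 0.499, limma adjusted p = 0.00626). As for Vwf, the WT call was lost without samples 15, 17 and 20 (log2 difference 1.53, limma adjusted p = 0.144).

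Across the set, 4 of 6 genes separated the stages completely in Pax5+/- mice, against 11.7% of all genes tested. In WT mice 6 of 6 did, against 21.1% of all genes, with 3 samples on each side. Leaving out any 1 of the 23 samples kept all 6 calls in both genotypes, with folds of Ppbp from 71 to 88 in Pax5+/- and from 90.8 to 106 in WT mice. In WT mice the highest limma adjusted p of these fits was 0.0482 for Vwf, near the threshold, and 0.0265 for Itga2b.

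**Figure D3:**
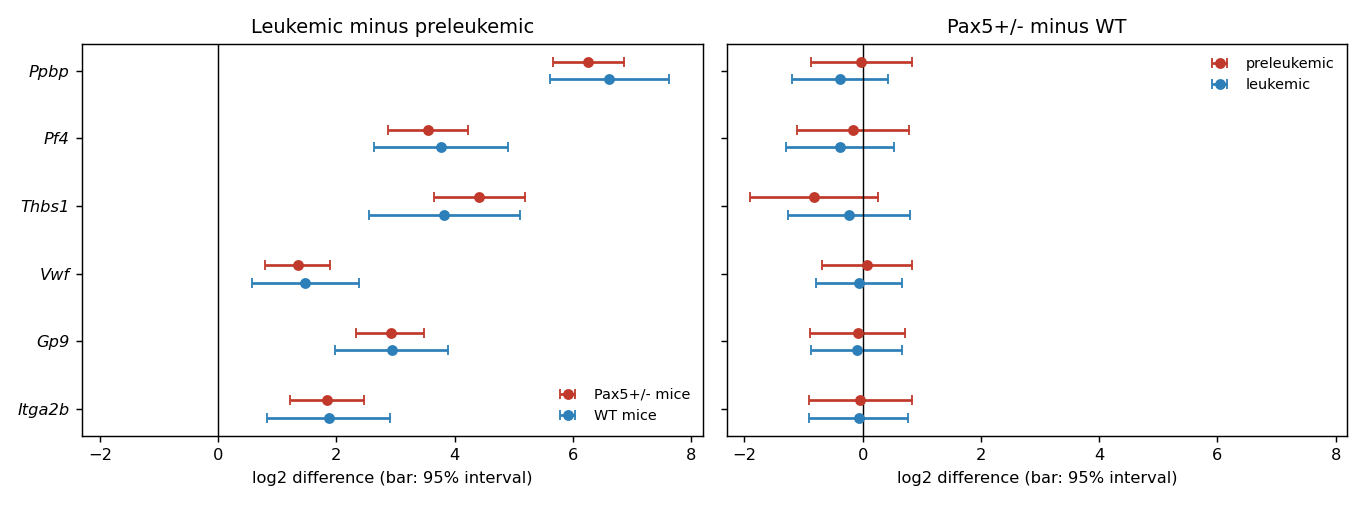
Fitted log2 differences (horizontal axis) of the 6 genes with 95% intervals, leukemic minus preleukemic on the left for Pax5+/- and WT mice, and Pax5+/- minus WT on the right for preleukemic and leukemic samples. On the left every interval lies above 0, and on the right every interval includes 0.

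Genotype was compared at each stage to ask whether loss of 1 Pax5 copy altered the levels of these genes. Before leukemia 0 of 6 passed by limma, with 0 at an unadjusted p under 0.05, against 0.624% of all genes passing. The log2 differences, Pax5+/- minus WT, ran from -0.83 for Thbs1 to 0.07 for Vwf. For Thbs1 the 95% interval on the ratio was 0.266 to 1.19, and the difference was -0.28 without WT sample 20. The intervals of the other 5 ratios lay between 0.46, for Pf4, and 1.78, for Vwf and Itga2b. In leukemia 0 of 6 passed, with 0 at an unadjusted p under 0.05, against 0.341% of all genes. The differences ran from -0.38 for Pf4 to -0.06 for Vwf, and the lowest and highest interval bounds of the ratios were 0.408, for Pf4, and 1.74, for Thbs1. Each WT leukemia lay within the range of the Pax5+/- leukemias for all 6 genes.

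The difference between the 2 stage effects, tested as an interaction, passed for 0 of 6 genes by limma, with 0 at an unadjusted p under 0.05, against 0.0965% of all genes. Its largest value was 0.59 on the log2 scale, for Thbs1, with a 95% interval of the ratio from 0.535 to 4.25. The order of the groups was thus leukemic over preleukemic for all 6 genes, and within a stage no genotype difference passed. The test pools the spread of all 4 groups, not that of 1 stage. For Gp9 the SD was 0.1 in both preleukemic groups and 0.84 in the Pax5+/- leukemias. Fitted on the preleukemic groups alone, 249 of 15011 genes passed between genotypes, against 97 in the main fit, and still 0 of the 6. The comparisons share samples and are not independent of one another.

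The 10 Pax5+/- leukemias kept nearly the same order for each gene. Leukemia 4 was the highest of the 10 for 6 of 6 genes and leukemia 6 the next for 6 of 6. Leukemia 9 was the lowest for 6 of 6 and leukemia 7 the next lowest for 6 of 6. The highest leukemia exceeded the lowest 6.06-fold for Ppbp, 9.19-fold for Pf4, 12.1-fold for Thbs1, 6.28-fold for Vwf, 6.06-fold for Gp9 and 8.34-fold for Itga2b. Among the 15 pairs of genes Pearson's r over these 10 samples was 0.83 to 0.98 and Spearman's rho 0.81 to 0.99. Without the 2 samples farthest from the median of the first gene of a pair, r was 0.81 to 0.99. All values of a pair come from the same arrays, and these correlations are a description with no test. In WT mice leukemia 14 was the lowest of 3 for 6 of 6 genes. Over the 10 preleukemic samples, with each group's mean subtracted, r of the 15 pairs ran from -0.62 to 0.67 with a median of -0.16.

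**Figure D4:**
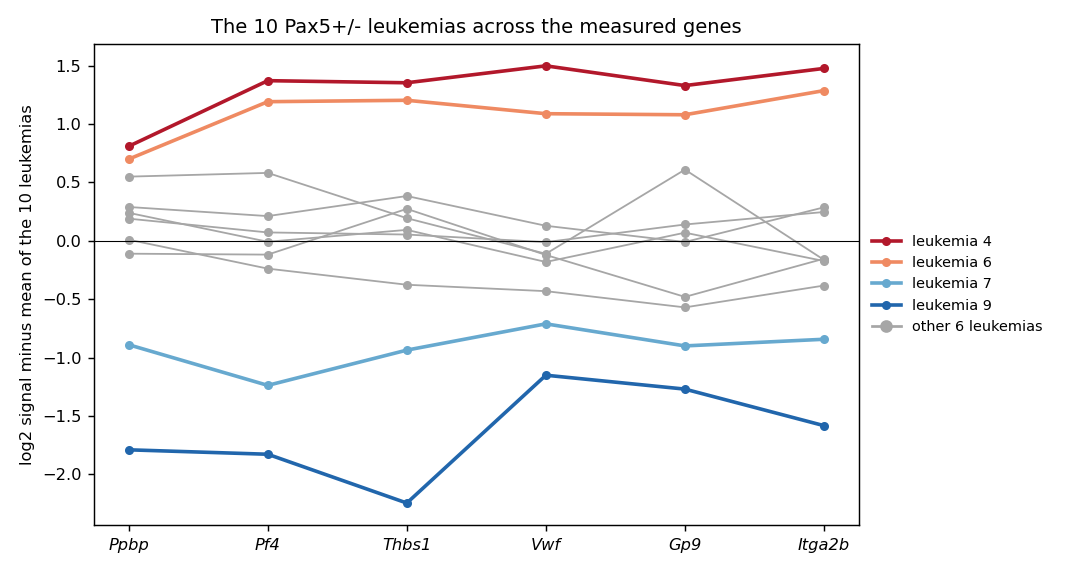
Log2 signal of each Pax5+/- leukemia minus the mean of the 10 leukemias (vertical axis) for the 6 genes (horizontal axis), 1 line per leukemia. Leukemias 4 and 6 lie at the top and leukemias 7 and 9 at the bottom for every gene, and the other 6 cross in between.

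Markers of other cells did not all follow that order. Leukemia 4, the highest for the platelet genes, had the lowest neutrophil marker mean of the 10 leukemias, 6.26 on the log2 scale, and ranked 9 of 10 for monocyte and macrophage markers (7.5) and 9 of 10 for endothelial markers (7.23). Leukemia 6 had the highest neutrophil mean, 11.21, and ranked 2 of 10 for monocyte and macrophage markers (8.56) and for stroma (8.21). Leukemia 9 ranked 10 of 10 for endothelial (6.6), monocyte and macrophage (7.18) and stroma markers (7.18). Leukemia 7 had the highest B cell precursor mean of the 10, 11.05, and ranked 9 of 10 for neutrophil (6.56), 8 of 10 for monocyte and macrophage (7.69) and 5 of 10 for endothelial markers (7.36). The mean of 34 other platelet genes was 8.93 in leukemia 4 and 8.78 in leukemia 6, ranks 1 and 2 of 10, and 7.39 in leukemia 7 and 7.2 in leukemia 9, ranks 9 and 10. Pearson's r of their mean with that of the 6 genes was 0.97 over the 10 leukemias. For megakaryocyte regulators it was 0.59, for erythroid markers 0.52, stroma 0.46 and endothelium 0.45. Mast cell and basophil markers had 0.32, monocytes and macrophages 0.24, stem and progenitor 0.19, neutrophils 0.05 and B cell precursors -0.43. These r values carry no test.

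For each gene the 3 genes of most similar pattern were taken as those of highest Pearson's r over the 23 arrays after subtracting each group's mean. For Ppbp they were Fhl2 (r = 0.864), F2rl2 (0.85), which encodes a protease-activated receptor for thrombin, and Lrrc32 (0.82). For Pf4 they were Alox12 (0.946), the platelet 12-lipoxygenase, Itgb3 (0.934), the integrin beta 3 subunit that pairs with Itga2b, and Gp9 (0.93). For Thbs1 they were Itgb3 (0.906), Clec1b (0.905), the CLEC-2 receptor for podoplanin, and F2rl2 (0.894). The genes nearest to Vwf were Tubb1 (0.965), the beta 1 tubulin of the platelet marginal band, Rab27b (0.961), which acts in granule secretion, and the serotonin transporter Slc6a4 (0.961). Gp9 was nearest to Myl9 (0.962), a myosin light chain, Alox12 (0.959) and Gp5 (0.946), the glycoprotein V subunit of its own complex. Itga2b was nearest to Gp5 (0.96), Alox12 (0.955) and P2rx1 (0.946), an ATP-gated channel of platelets. The median r of a gene with all genes tested was -0.07 to -0.01 for the 6. These genes were the top of a long ranking over shared arrays, so their r values carry no test.

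Most other platelet genes moved in the same direction. Of 34 tested, 28 rose and 0 fell in Pax5+/- leukemia (82.4%, against 28.0% of all genes), 17 of them by over 2-fold (50%, against 6.87%). Their median log2 difference was 0.98, against -0.05 over all genes. Of the 34, 33 cleared the filter on the preleukemic arrays alone, and the remaining gene needed leukemic arrays to be tested. Tbxa2r, the thromboxane receptor, rose 4.16-fold (SE 0.156, limma adjusted p = 6.28e-10), with every leukemia above every preleukemic sample. Tubb1 rose 7.61-fold (limma adjusted p = 8.47e-08), F2rl2 9.45-fold (adjusted p = 8.98e-08) and the ADP receptor gene P2ry12 3.68-fold (adjusted p = 1.34e-07). The partners of the measured genes were also higher: Itgb3 rose 2.62-fold (adjusted p = 0.00171) and Gp5 1.75-fold (adjusted p = 0.0147), and both overlapped between the stages. The 6 genes that did not pass included the coagulation factor genes F5 and F13a1, both with values below 0 in both genotypes. Mmrn1, which encodes multimerin 1, did not pass either (1.26-fold higher, limma adjusted p = 0.358). Its WT leukemias, at 6.02 to 6.96, all lay below its WT preleukemic samples, at 7.17 to 7.56, and that difference did not pass. Several genes of the list are expressed in other marrow cells too, among them Fcer1g, Plek, Srgn and Cd9.

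In WT mice 19 of 34 rose and 0 fell (55.9%, against 17.9% of all genes), and 14 rose by over 2-fold. F2rl2 rose 10.6-fold (SE 0.574, limma adjusted p = 0.000136), Tubb1 7.4-fold, Clec1b 3.51-fold and Clu, which encodes the granule protein clusterin, 3.82-fold. The count was 12 without WT leukemia 17, 12 without WT preleukemic sample 18, 11 without sample 19 and 8 without samples 15, 17 and 20. With array weights it was 25. Between genotypes before leukemia 1 of 34 passed as lower in Pax5+/- samples (2.94%, against 0.392% of all genes), with 10 at an unadjusted p under 0.05. For 7 of the 34 every Pax5+/- preleukemic sample lay below every WT one, and for 0 above. The shares of all genes at that unadjusted p and with such a separation were not counted, so neither count is read as a result. The 34 log2 differences, Pax5+/- minus WT, ran from -1.38 to 0.26, with a median of -0.04 against 0.0 over all genes. The passing gene, Pear1, a receptor of platelet contact, was 1.73-fold lower in Pax5+/- samples (limma adjusted p = 0.00599), and the adjusted p was 0.101 without WT sample 19. In leukemia 0 of 34 passed between genotypes by limma, with 0 at an unadjusted p under 0.05. The interaction passed for 0 of 34 by limma, with 4 at an unadjusted p under 0.05.

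Regulators of megakaryocytes did not rise as a block. Of 17 tested, 7 rose (41.2%, against 28.0% of all genes) and 5 fell (29.4%, against 36.5%) in Pax5+/- leukemia, with a median log2 difference of 0.08. Etv6, an ETS family repressor, rose 2.42-fold (SE 0.109, limma adjusted p = 3.52e-09), Nfe2, a factor of late megakaryocytes, rose 1.82-fold (adjusted p = 0.00182) and Lyl1 1.59-fold (adjusted p = 0.000818). Mafg, a partner of Nfe2, rose 1.23-fold. Gata1, a factor of megakaryocytes and red cells, rose 1.3-fold (adjusted p = 0.038). Fli1, an ETS factor of megakaryocytes that B cells also express, fell 1.39-fold (SE 0.0861, adjusted p = 8.24e-05). The corepressor gene Cbfa2t3 fell 1.86-fold, Zfpm1, the GATA cofactor FOG1, fell 1.69-fold and Meis1, below the array median on every array, fell 1.31-fold. Several regulators were well above the array median before leukemia. In Pax5+/- preleukemic samples the mean log2 signal was 10.79 for Fli1, 10.49 for Zfpm1, 10.0 for Cbfa2t3, 9.68 for Lyl1 and 9.03 for Etv6. Which cells these signals came from was not tested. In WT mice 4 of 17 rose and 3 fell: Etv6 rose 2.08-fold, Gata1 2.07-fold, Tal1 1.35-fold and Ldb1 1.32-fold, while Cbfa2t3, Fli1 and Meis1 fell (17.9% and 19.3% of all genes rose and fell). Gata1 ran from 5.95 through a median of 7.28 to 7.28 in the WT leukemias and from 5.67 to 6.02 in the WT preleukemic samples. Its lowest WT leukemia thus lay inside the preleukemic range. The WT calls of Gata1, Tal1, Ldb1 and Meis1 were each lost under at least 1 alternative, as was that of Mafg in Pax5+/- mice. The WT count of rises was 7 with array weights and 1 without samples 15, 17 and 20.

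**Figure D5:**
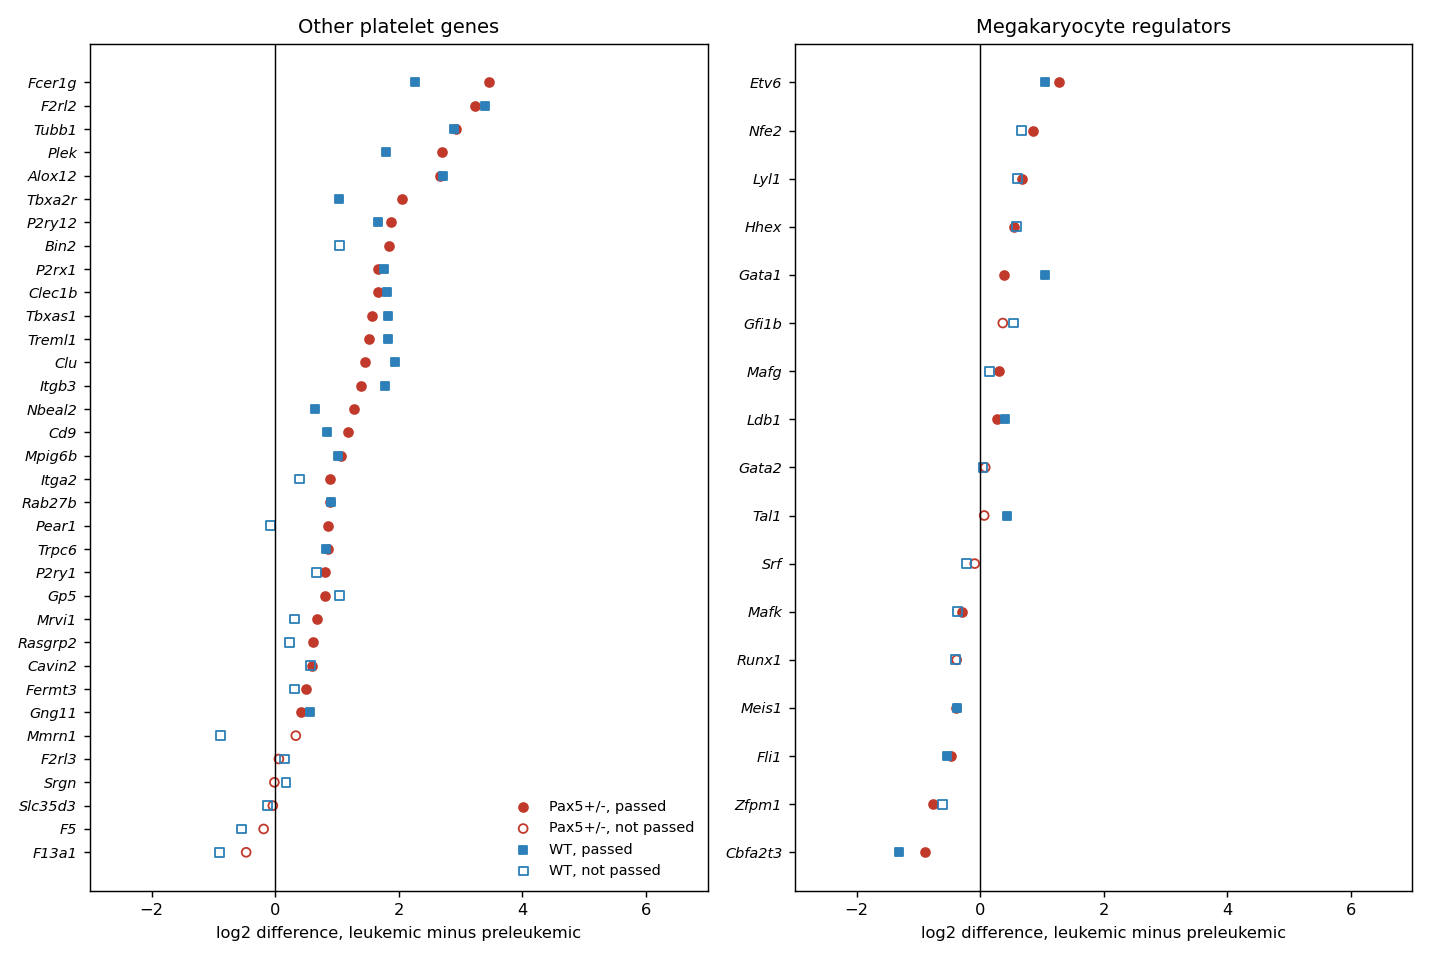
Log2 difference, leukemic minus preleukemic (horizontal axis), of 34 other platelet genes on the left and 17 megakaryocyte regulators on the right, for Pax5+/- (circles) and WT mice (squares), filled where the adjusted p was under 0.05. Differences of platelet genes run from -0.47 to 3.45 in Pax5+/- mice and those of regulators from -0.9 to 1.28.

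Of 8 relatives and partners of Thbs1 and Vwf tested in Pax5+/- mice, 3 rose and 3 fell (37.5% each). These shares lie near the 28.0% and 36.5% of all genes that rose and fell. F8, the coagulation factor that Vwf carries, rose 1.54-fold (limma adjusted p = 0.000127), the thrombospondin receptor gene Cd36 rose 2.06-fold and Thbs2 rose 1.14-fold. On the preleukemic arrays alone 7 of the 8 genes cleared the filter. Cd36, at 4.63 to 4.75 in the Pax5+/- preleukemic samples, needed leukemic arrays to be tested. Its rise is thus partly selected by the filter. Thbs3 fell 1.11-fold, Thbs4 1.15-fold and Adamts13, the protease that cleaves Vwf, 1.11-fold. Thbs2, Thbs3 and Adamts13 lay below the array median on every array, and Thbs4 did in every leukemia. Whether these low signals exceeded background was not tested. In WT mice 2 of 8 rose and 1 fell (25% and 12.5%, against 17.9% and 19.3% of all genes): F8 rose 1.91-fold, Thbs2 rose 1.2-fold and Thbs4 fell 1.23-fold. The calls of Adamts13 in Pax5+/- mice and of Thbs2 and Thbs4 in WT mice were lost under at least 1 alternative. Of 4 tested genes among the neighbouring chemokines and their receptors, 1 rose in Pax5+/- mice (25%, against 28.0% of all genes) and 0 in WT mice. Of these 4, 3 cleared the filter on the preleukemic arrays alone. The receptor gene Cxcr3 rose 2.57-fold in Pax5+/- mice (limma adjusted p = 0.00454), and in WT mice its fold was 1.63 (adjusted p = 0.396). The other receptor gene, Cxcr2, passed in neither genotype and was 2.36-fold higher in Pax5+/- leukemia (limma adjusted p = 0.065). Its mean log2 signal was 5.84 in Pax5+/- and 7.8 in WT leukemias.

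Markers of endothelium, monocytes and macrophages, stroma and neutrophils were mostly higher in Pax5+/- leukemia, and those of erythroid, stem and progenitor, and mast cells and basophils were not. The counts stand against 28.0% of all genes that rose and 36.5% that fell. Of 10 endothelial markers, 9 rose and 1 fell, and their mean log2 level was 6.6 to 7.92 in leukemia and 6.37 to 6.45 before it. Endoglin (Eng) differed by 2.25 and endomucin (Emcn) by 2.19 on the log2 scale, while Pecam1, which B cell precursors and platelets also express, fell by 0.68. Of 11 monocyte and macrophage markers, 10 rose, with a mean of 7.18 to 9.49 against 6.11 to 6.37. Of 9 stroma markers, 8 rose, with a mean of 7.18 to 8.46 against 6.05 to 6.24, and of 10 neutrophil markers 8 rose, with 6.26 to 11.21 against 6.22 to 6.96. Of 8 mast cell and basophil markers 6 were tested and 1 rose, with a mean of 5.58 to 6.39 against 5.51 to 5.66. The erythroid list, of 6 markers, had 0 rises and 1 fall, with a mean of 5.75 to 6.26 against 6.22 to 6.88. Of 4 stem and progenitor markers tested, 2 rose and 2 fell. On the preleukemic arrays alone, 7 of 9 stroma, 9 of 10 endothelial and 9 of 10 neutrophil markers cleared the filter. All 11 monocyte and macrophage markers and all 4 stem and progenitor markers did, with 5 of 6 erythroid and 4 of 6 mast cell and basophil markers. The remaining markers needed leukemic arrays to be tested, so a rise of theirs in either genotype is partly selected by the filter.

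In WT mice, where 17.9% of all genes rose and 19.3% fell, 7 of 10 endothelial, 7 of 11 monocyte and macrophage, 7 of 9 stroma and 4 of 6 erythroid markers rose, and 1 endothelial marker fell. By limma 0 of 10 neutrophil markers passed, with 1 at an unadjusted p under 0.05, and 0 of 6 mast cell and basophil markers, with 0 at an unadjusted p under 0.05. Of 4 stem and progenitor markers 0 rose and 1 fell, with 2 at an unadjusted p under 0.05. Means in WT leukemia and before it were 7.19 to 7.32 and 6.41 to 6.48 for endothelium, 8.74 to 8.94 and 6.32 to 7.43 for monocytes and macrophages, and 7.86 to 8.12 and 6.03 to 6.27 for stroma. The neutrophil means were 9.51 to 10.48 in WT leukemia and 6.54 to 11 before it. Erythroid means were 9.04 and 9.26 in leukemias 15 and 17 and 6.14 in leukemia 14, below the 3 preleukemic samples at 6.33 to 8.12. Mast cell and basophil means were 6.03 to 6.78 and 5.65 to 7.01, and stem and progenitor means 5.74 to 6.39 and 5.82 to 5.91. Of the 10 endothelial markers 6 were above the array median in every Pax5+/- leukemia and 5 in every Pax5+/- preleukemic sample. The part of these cells in the levels of the platelet genes was not tested.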

How the data were processed

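The authors deposited 1 table of log2 signals for 28944 probe sets on 23 one-colour arrays. Per the submitters' processing notes, Transcriptome Analysis Console was used, no version being named. The background correction, summarization and normalization are not given in the sources used here. The log base is not stated and was taken from the range of values, 3.65 to 14.2. Probe sets were named from the platform annotation: 21789 carried 1 symbol, 1621 several and 5534 none, and the last 2 kinds were left out. Genes above the 30th percentile of their array on at least 3 arrays were tested, which left 15542. One linear model over the 4 groups was fitted (limma 3.58.1, R 4.3.3), with variances moderated along mean intensity. Tests were two-sided and p-values were adjusted after Benjamini and Hochberg over all genes tested. The table holds no detection calls. Groups came from the sample titles, which give each sample a number of its own. Sample 16 was not used here. Separate mice are named for the samples, so p-values measure the spread between mice, pooled over the 4 groups.

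The genes and lists were chosen with earlier results of these data known. All 9 genes were to be named in every comparison, with up to 4 passing genes of smallest p per direction from each list, and 3 genes of most similar pattern per gene without predicted genes or receptor segments. Itgb3, Gp5, the neighbours of Ppbp and Pf4, F5, F13a1, Mmrn1, Cxcr2 and Gata1 in Pax5+/- mice, Eng, Emcn, Pecam1 and the list genes said to be expressed in other marrow cells were named after their values were seen. Fits were tested on simulated data. Figures were drawn with matplotlib 3.10.9.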

Additional observations from a re-analysis of the deposited data

How the results depend on the processing

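Alternatives changed the filter (none, or the 50th percentile), the variance prior (untrended or robust), the weights of arrays, the scaling (quantile or median), the groups in a fit, and the probe sets of a symbol (each, or their mean). Others added Xist as covariate or mouse-number letters as random blocks, or left out samples; the sets 15, 17 and 20 and 2, 6 and 7 were chosen with earlier results known. No paired analysis was possible because each sample number occurs once in the series.

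The counts of passing genes among the 6 were 6 for Pax5+/- leukemic against preleukemic and 0 for both genotype comparisons and the interaction under every alternative. For WT leukemic against preleukemic the count was 6 except without samples 15, 17 and 20, where it was 4. That setting leaves 1 WT leukemia, which is assumed to vary like the other groups. Other platelet genes rising in WT mice numbered 11 to 21 with 1 sample left out, 25 with array weights, 13 with Xist as a covariate and 8 without samples 15, 17 and 20. Rising megakaryocyte regulators in WT mice numbered 7 with array weights and 1 without those samples, and the cause was not tested.

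No difference that passed changed its sign. Differences that had not passed and changed sign, on the log2 scale, were these. With array weights, Pax5+/- minus WT before leukemia was -0.018 for Vwf and 0.004 for Itga2b, in leukemia 0.029 for Gp9, and the interaction was 0.001 for Pf4, 0.003 for Vwf and 0.16 for Gp9. With Xist as a covariate Itga2b before leukemia was 0.055. Without samples 15, 17 and 20 the value before leukemia was -0.014 for Vwf and 0.017 for Itga2b, in leukemia 0.35 for Thbs1, 0.39 for Vwf, 0.31 for Gp9 and 0.32 for Itga2b, and the interaction was 0.24 for Pf4, 0.41 for Vwf, 0.44 for Gp9 and 0.31 for Itga2b. Without leukemias 2, 6 and 7 the Gp9 interaction was 0.04. With 1 sample left out, values before leukemia ran from -0.14 to 0.09 for Ppbp, -0.014 to 0.131 for Vwf and -0.093 to 0.017 for Itga2b. In leukemia they ran from -0.524 to 0.026 for Thbs1, -0.29 to 0.13 for Vwf, -0.31 to 0.13 for Gp9 and -0.27 to 0.11 for Itga2b. Interactions ran from -0.358 to 0.057 for Vwf, -0.22 to 0.21 for Gp9 and -0.23 to 0.15 for Itga2b.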
